A study of Homo sapiens with 6 samples.

Results

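The 10 interferon effector genes described here, on 6 arrays, are IFI44L, IFI44, IFI27, IFI6, MX1, MX2, IFI35, XAF1, RSAD2 and BST2. Every probe set whose single annotated gene was one of these was taken, which gave 14 probe sets of 54613 (control probe sets left out) and 10 genes of 19775 with such a probe set. The genes were chosen by their measured difference in signal between the groups, already known from these arrays, so that difference is given here as a description. How many passed the threshold is stated beside the share of all probe sets that did, and again under alternative processing, and nothing is read from it. The cells were NCI-H292, a human lung cancer line of epithelial type. In the CT45A1 overexpression group (3 arrays) they had been stably transfected with CT45A1 joined to the fluorescent protein Venus. In the CT45A1 negative group (3 arrays) they carried the Venus vector, so Venus was common to both groups. CT45A1 belongs to a family of cancer/testis antigens, whose expression is largely limited to testis and to certain tumours. The labels do not say whether the transfected cells were a pool or 1 clone, nor whether replicates were separate cultures, so the errors and p-values cover array-to-array spread, possibly of technical origin alone.

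Interferons are secreted proteins that warn cells of virus infection. Type I and type III interferons bind their receptors, activate the JAK1 and TYK2 kinases and bring a STAT and IRF9 complex to interferon-stimulated response elements in DNA. The genes that this complex switches on include direct antiviral effectors, and epithelial and carcinoma cells can keep a part of that set active without added interferon. MX1 and MX2 are dynamin-like GTPases that block incoming viruses at different steps. IFI6 and IFI27 are small hydrophobic membrane proteins of one family. RSAD2, also called viperin, makes an antiviral nucleotide analogue, XAF1 binds the apoptosis inhibitor XIAP, BST2 (tetherin) holds budding virus at the cell surface, and IFI35 is a partner of NMI. IFI44 and IFI44L are neighbouring, related genes whose products are less well understood.

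The promoters are shown because most of the genes share one motif. The RefSeq promoter table (GRCh38.p14), which gives 250 bases before to 50 after an annotated start, held 15 windows for 9 of the 10 genes, and none for MX2. Each window was searched on both strands for the core of the interferon-stimulated response element, taken as GAAA, any 2 bases and GAAA again. The core was present in the windows of 7 of the 9 genes (77.8%), against 1195 of 27305 genes in the whole table (4.38%). By window the count was 10 of 15 against 1255 of 35116 (3.57%). The core of the gamma-activated site, TTCNNNGAA (N is any base), which reads the same on both strands, was found for 4 of the 9 genes, against 9.38% of all genes. Among other interferon-induced genes, 31 of 49 held the response element core and 13 of 49 the gamma-activated site core. Among genes biased to interferon-gamma these counts were 7 of 15 and 6 of 15. Among interferon ligand, receptor and signalling genes they were 5 of 26 and 9 of 26, and among genes next to the effectors 1 of 13 and 1 of 13. The 250 bases before the start are printed below for 6 of the genes, 5′ to 3′ on the gene's own strand, with the response element core or its reverse complement in capitals.
IFI44L, chr1:78620198-78620447, plus strand: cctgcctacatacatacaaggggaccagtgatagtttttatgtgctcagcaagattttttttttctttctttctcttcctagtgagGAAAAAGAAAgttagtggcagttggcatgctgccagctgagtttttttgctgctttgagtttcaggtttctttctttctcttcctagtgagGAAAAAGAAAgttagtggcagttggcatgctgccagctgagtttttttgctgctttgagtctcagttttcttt
IFI44, chr1:78649539-78649788, plus strand: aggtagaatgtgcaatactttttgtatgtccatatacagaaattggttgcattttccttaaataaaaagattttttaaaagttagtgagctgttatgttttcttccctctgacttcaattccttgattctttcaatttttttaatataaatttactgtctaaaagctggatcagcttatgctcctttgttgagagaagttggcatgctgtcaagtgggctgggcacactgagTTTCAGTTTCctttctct
IFI27, chr14:94110486-94110735, plus strand: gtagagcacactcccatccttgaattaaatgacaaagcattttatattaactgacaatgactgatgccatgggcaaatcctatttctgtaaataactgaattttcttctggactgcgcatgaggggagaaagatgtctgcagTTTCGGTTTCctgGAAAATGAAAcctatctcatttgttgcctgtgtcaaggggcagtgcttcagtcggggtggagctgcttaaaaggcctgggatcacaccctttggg
IFI6, chr1:27672193-27672442, minus strand: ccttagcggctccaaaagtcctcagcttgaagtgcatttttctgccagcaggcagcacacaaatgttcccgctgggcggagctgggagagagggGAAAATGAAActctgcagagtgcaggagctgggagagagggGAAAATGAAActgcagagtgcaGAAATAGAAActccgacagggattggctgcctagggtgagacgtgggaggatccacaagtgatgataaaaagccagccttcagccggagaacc
RSAD2, chr2:6877527-6877776, plus strand: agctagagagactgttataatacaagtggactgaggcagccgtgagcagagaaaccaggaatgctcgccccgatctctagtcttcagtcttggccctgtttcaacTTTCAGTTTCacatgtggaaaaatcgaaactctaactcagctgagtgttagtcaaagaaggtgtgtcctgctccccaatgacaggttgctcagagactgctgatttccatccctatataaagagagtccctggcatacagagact
BST2, chr19:17405631-17405880, minus strand: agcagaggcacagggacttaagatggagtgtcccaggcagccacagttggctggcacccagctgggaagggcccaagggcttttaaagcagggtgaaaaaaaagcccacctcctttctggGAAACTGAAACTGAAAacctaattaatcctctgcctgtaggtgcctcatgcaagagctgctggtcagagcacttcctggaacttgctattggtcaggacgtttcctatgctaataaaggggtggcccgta
In IFI44L both copies of the core lay in a direct repeat of 85 bases, whose copies began 91 bases apart. IFI6 had 3 cores, of which 2 lay in a direct repeat of 29 bases, with copies beginning 41 bases apart. IFI27 had a pair of cores in opposite orientation, and a gamma-activated site core overlapped both of them. The BST2 window held a pair of overlapping cores, and the first of these overlapped a gamma-activated site core. MX1 had 3 annotated starts in the table, and the core stood 11 bases after the first start and 196 bases before the third, where it overlapped a gamma-activated site core. Neither window of XAF1 held the core, nor did the window of IFI35, which held a gamma-activated site core. These matches are letters in a window and were not tested as binding sites.

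**Figure D1:**
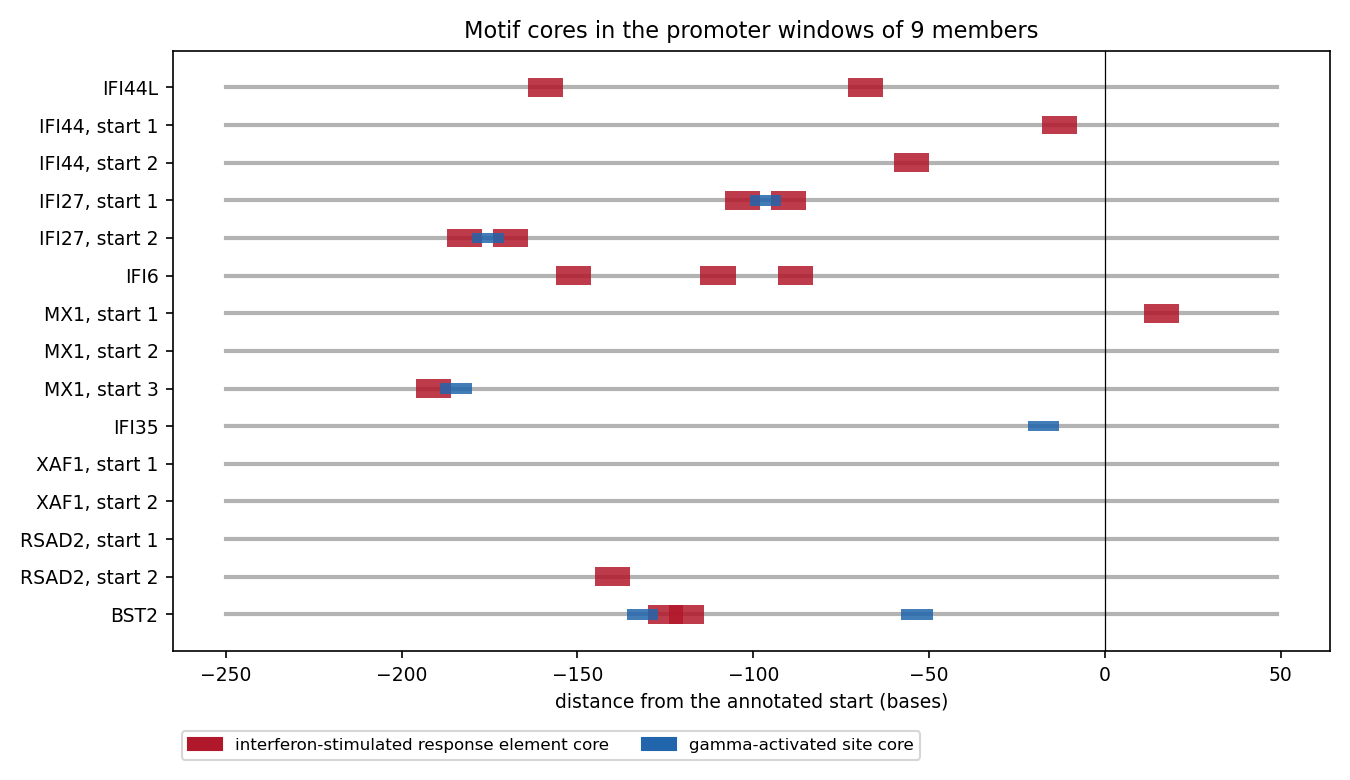
Positions of the motif cores in the 15 promoter windows of 9 genes, in bases from the annotated start (0 on the horizontal axis), with each grey line a window of 250 bases before to 50 after it. Tall red boxes are interferon-stimulated response element cores and flat blue boxes are gamma-activated site cores. The response element core appears in 10 of the 15 windows.

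Each value is a MAS5 signal on a linear scale. A difference is always the mean log2 signal of the overexpression arrays minus that of the negative arrays. Array medians of the signal were 79.2 to 83.3 in the overexpression group and 72.6 to 75.6 in the negative group. Probe sets brighter than the median of their array on 3 or more arrays were kept for testing. Of the 14 probe sets, 8 were kept, representing 7 of the 10 genes, and the 6 others (all those of XAF1, RSAD2 and BST2) were too dim. Signal from CT45 was higher on the 3 overexpression arrays (518, 700.1 and 445) than on the 3 negative ones (23.1, 15.8 and 1.95) at the brighter of 2 probe sets, each of which is annotated to 9 CT45 genes. Epithelial markers were bright in both groups. Their mean log2 signal over 10 genes was 12.40 to 12.51 per overexpression array and 12.40 to 12.51 per negative array. Of the 10, 1 (KRT18, a keratin) fell, by 0.25, where 1.95% of all genes tested fell. Of 18 leukocyte markers, 16 were on the array and 4 were bright enough to test. None of those 4 passed in limma, and none had an unadjusted p under 0.05. Over the 16 the mean log2 signal was 5.11 to 5.22 per overexpression array, against 4.49 to 4.95 per negative array. PTPRC, the pan-leukocyte CD45, gave 13.1, 50.4 and 19.4 against 31.9, 19.99 and 3.74, below the array median throughout. Of 13 stromal and endothelial markers 3 were bright enough to test, and none passed, although CDH5, the endothelial VE-cadherin, had an unadjusted p of 0.0106 (difference 0.79, adjusted p = 0.122). Their mean log2 signal over 13 genes was 4.83 to 5.19 with CT45A1 against 4.51 to 4.94 without it. Over all genes tested 3.84% passed, a share from which a count of none among so few markers cannot be told. The part of these markers in the results below was not tested. In such bulk samples fewer cells of a type and less RNA per cell cannot be told apart.

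The GTPase MX1 (probe set 202086_at) gave 2835, 2010.0 and 1723 on the overexpression arrays, against 912, 966 and 740.2 on the negative arrays, both in the order of replicates 1, 2 and 3 used throughout. The lowest overexpression array was well above the highest negative array. On the log2 scale the means were 11.06 ± 0.37 with CT45A1 and 9.76 ± 0.20 without it (SD, n = 3 each), a difference of 1.30 (SE 0.17). Its paralogue MX2 (204994_at), which restricts retroviruses, gave 709, 611 and 508 against 244, 309 and 289. These groups did not overlap either. The MX2 means were 9.24 ± 0.24 and 8.12 ± 0.18, a difference of 1.11 (SE 0.15).

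IFI27 (202411_at) gave 1915, 1382 and 1375 with CT45A1, against 619, 538 and 519 without it. Its log2 means were 10.59 ± 0.27 and 9.12 ± 0.13, a difference of 1.47 (SE 0.14), or 2.76-fold. IFI6 (204415_at), of the same protein family, gave 1826, 1545 and 1722 against 721, 841 and 716, a difference of 1.16 (SE 0.10). For both genes the groups were apart, and the SDs within a group were 0.12 to 0.27. Of the related genes, IFI27L1 gave 333, 365 and 337 against 330.0, 375 and 335, and IFI27L2 gave 726, 698 and 701 against 829, 855 and 939. Both lie next to IFI27 in the genome, and neither passed in limma (log2 differences -0.0047 and -0.30, SE 0.12 and 0.09, adjusted p = 0.989 and 0.0990).

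IFI44L (204439_at) had the largest difference of the 7 genes that could be measured. Its signals were 639, 476 and 348 on the overexpression arrays, against 137, 136 and 68.2 on the negative arrays. The means were 8.89 ± 0.44 and 6.76 ± 0.58, a difference of 2.13 (SE 0.30), or 4.37-fold. Negative replicate 3 lay below its array's median of 75.6, and without that array the difference was 1.79. The neighbouring IFI44 was read by 2 probe sets, and on both every overexpression array was above every negative array. The brighter one (214453_s_at) gave 860.2, 627 and 600.5 against 300.2, 319 and 271, a difference of 1.21 (SE 0.15). The dimmer one (214059_at) gave 159, 98.9 and 93.9 against 37.1, 55.5 and 66.9. That probe set passed the filter on dim values through the overexpression arrays alone, and against the negative arrays' median its fold was at least 1.55.

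IFI35 (209417_s_at) had the smallest difference among the kept probe sets. It gave 783, 641 and 697 against 447, 532 and 529, with means of 9.46 ± 0.15 and 8.97 ± 0.14 and a difference of 0.49 (SE 0.12). The groups were apart, but by less than for the other genes. Probe sets ending in _s_at, such as this one and the brighter one of IFI44, can match more than 1 transcript. NMI, the binding partner of IFI35 and itself induced by interferon, gave 2539, 2364 and 2399 against 2141, 1888 and 2210.1 and did not pass in limma (log2 difference 0.23, SE 0.08, adjusted p = 0.138).

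The remaining 3 genes stayed near or below the array medians. XAF1 had 3 probe sets. One (228617_at) gave 100.4, 86.1 and 40.1 against 19.1, 28.3 and 43.9, with overlapping groups. Another (206133_at) gave 55.3, 89.4 and 48.8 against 9.73, 41.8 and 47.7, where the groups stood just apart, and the third (242234_at) gave 32.4, 46.5 and 37.1 against 22.3, 10.97 and 87.4. Because both group means of each probe set lay below the array median, no fold is given for XAF1. RSAD2 gave 33.0, 88.1 and 35.7 against 29.5, 44.1 and 37.4 at one probe set (213797_at) and 55.2, 35.6 and 58.1 against 20.3, 37.1 and 28.6 at the other (242625_at), with overlap in both. BST2 (201641_at) was far below the array medians on each array, at 5.19, 31.9 and 9.48 against 4.86, 9.63 and 11.6. At these signals a difference was not detectable. CMPK2, the mitochondrial kinase gene next to RSAD2, was well above the array medians at 632, 387 and 401 against 203, 286 and 195.

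**Figure D2:**
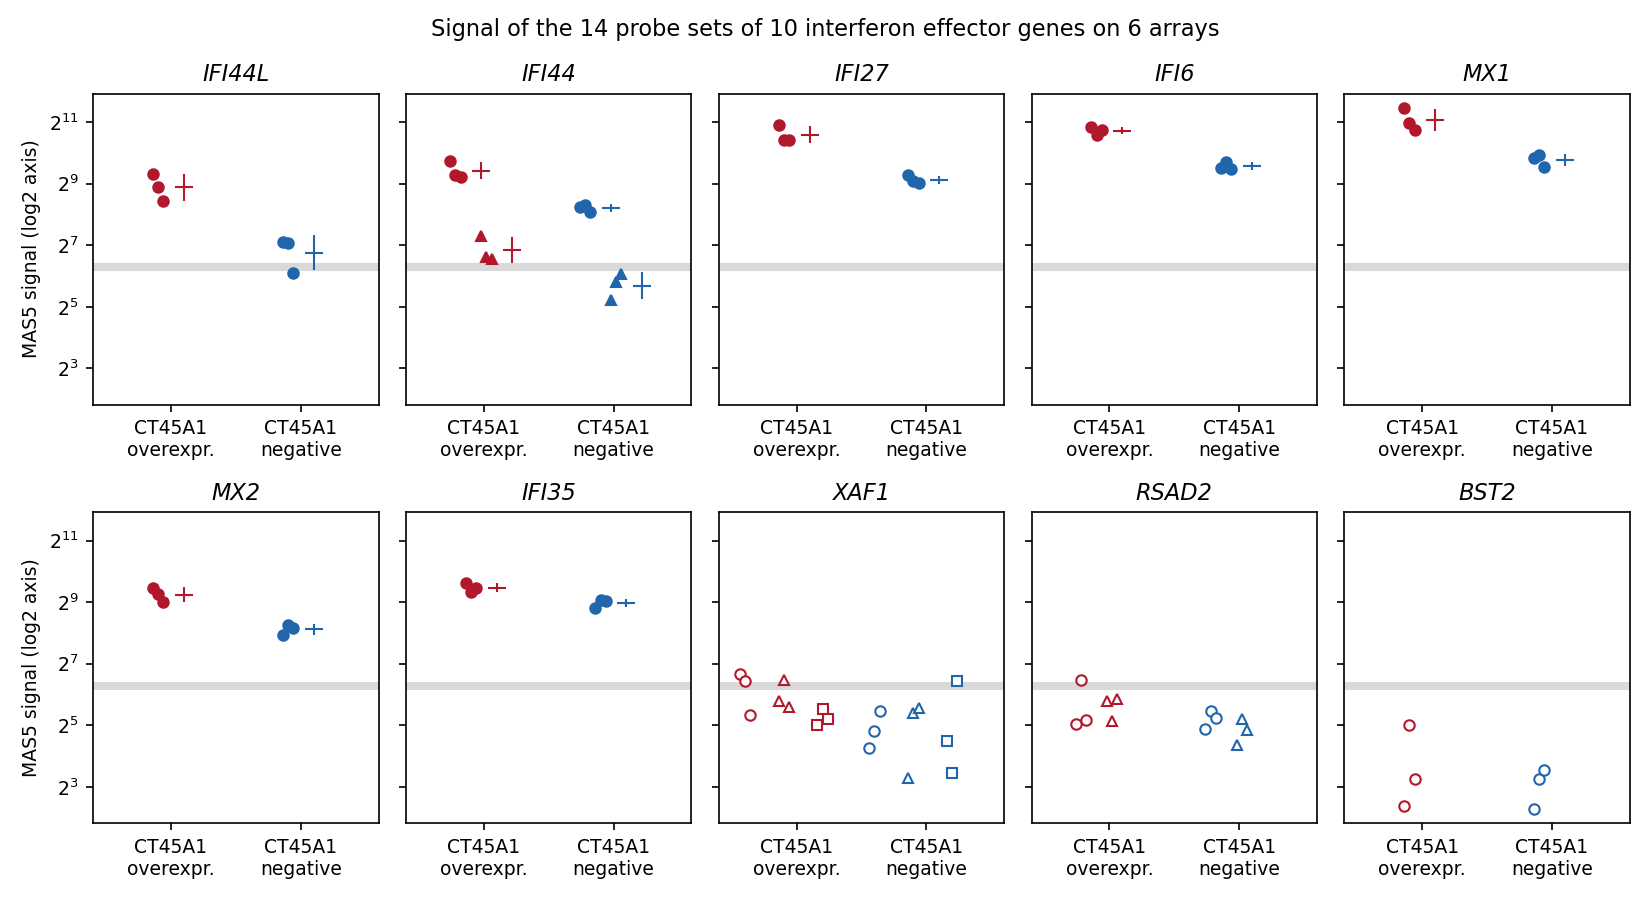
MAS5 signal (log2 axis) of each of the 14 probe sets, 1 panel per gene, with 3 CT45A1 overexpression arrays (red) left of 3 CT45A1 negative arrays (blue). Symbols of 1 shape are 1 probe set, filled symbols were kept for testing and open ones were not, crosses give the mean and SD on the log2 scale for kept probe sets, and the grey band spans the array medians of 72.6 to 83.3. For each probe set with filled symbols the 2 groups do not overlap, while every BST2 value lies below the band.

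On all 8 kept probe sets the overexpression arrays lay above the negative arrays, a pattern shown by 15.2% of all 27618 probe sets tested. At an adjusted p under 0.05 in limma, 6 of the 8 were called, against 3.23% of all probe sets (1.89% when counted upward). These counts follow from how the genes were chosen. The 2 not called were IFI35 and the dimmer probe set of IFI44. With genes tested in place of probe sets, IFI35 crossed the threshold, and 7 of 7 genes were called against 3.84% of 11895 genes. The median difference of the 8 was 1.19, against 0.033 over all probe sets tested. Leaving out any 1 array gave 6 calls each time, and fitting without the variance trend gave 0. The array medians themselves were higher with CT45A1 by 0.14 on the log2 scale, and once that shift was taken out the differences were smaller by that amount (IFI44L 1.98, MX1 1.16, IFI35 0.35). The actin 3′/5′ ratio, which grows with RNA degradation or short labelling, was 1.42, 1.49 and 1.55 on the overexpression arrays and 1.70, 1.64 and 1.91 on the negative ones, without overlap. The GAPDH 3′/5′ ratio was 1.01, 0.97 and 1.04 against 1.09, 1.05 and 1.18, also without overlap. With the actin ratio as a covariate 2 of the 8 were called (IFI27 at 1.15 and IFI6 at 0.98). IFI44L was then at 0.85, MX1 at 0.67, MX2 at 0.92, the brighter probe set of IFI44 at 0.80 and IFI35 at 0.48. Signal of the hybridisation control BioB was 827 on overexpression replicate 3 and 1409 to 1537 on the other 5 arrays.

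Ordered by size, the differences of the brightest probe sets were those of IFI44L, IFI27, MX1, IFI44, IFI6, MX2 and IFI35. From IFI27 to MX2 each gap to the next gene (0.05 to 0.16) was smaller than its combined standard error (0.18 to 0.23). That error treats the genes of a pair as independent, although both were read on the same arrays. It therefore does not settle the order of these 5 genes, and their gaps were not tested array by array. The gap between IFI44L and IFI27 was 0.66 (combined SE 0.33), and that between MX2 and IFI35 was 0.62 (combined SE 0.19). Apart from taking the brightest probe set of a gene, levels of different probe sets are not compared, since brightness depends on the probe.

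The order of the arrays within a group was not used to choose the genes. Overexpression replicate 1 was the highest of its group for 7 of 7 brightest probe sets, against 32.3% of all genes tested. It was also the highest for 36 of 57 other interferon-induced genes (63.2%). Overexpression replicate 3 was the lowest for 5 of the 7, against 33.4% of all genes. In the negative group, replicate 3 was the lowest for 5 of 7, against 36.1% of all genes. Averaged over the 7, log2 signal was 10.19, 9.82 and 9.72 with CT45A1 (replicates 1, 2 and 3), against 8.67, 8.78 and 8.49 without it. CT45 signal at the brighter probe set was highest on overexpression replicate 2, and lowest on replicate 3 in both groups, so it shared this order only in part. At the other CT45 probe set overexpression replicate 3 was the highest of its group and negative replicate 1 the lowest of its group. The part of the CT45 level in this order was not tested. The actin ratio was lowest on overexpression replicate 1 and highest on negative replicate 3, and its part in this order was not tested.

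The 8 genes whose profile over the 6 arrays was most like the mean profile of the 7 were OAS2, IFIT1, ISG15, CMPK2, TRMT10B, COL1A1, HAPLN3 and OASL. Likeness was the root-mean-square distance between log2 signals centred on each gene's mean, which was 0.13 for OAS2 and 0.22 for OASL, against a median of 0.67 over 11888 genes. OAS2 and OASL belong to the oligoadenylate synthetase family, IFIT1 binds viral RNA and ISG15 is a ubiquitin-like modifier, and these 4 with CMPK2 are in the list of interferon-induced genes. TRMT10B, COL1A1, a collagen chain, and HAPLN3, a matrix link protein, are not in that list. The list held 57 of the 11888 genes. The distance takes in the group difference by which the effector genes were chosen, and the list was drawn up with earlier results known. The overlap with the list is therefore no independent support. Among the 7 themselves the distance was 0.04 for IFI44, 0.08 for MX1, 0.42 for IFI35 and 0.52 for IFI44L. The last 2 had the smallest and the largest difference of the 7.

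**Figure D3:**
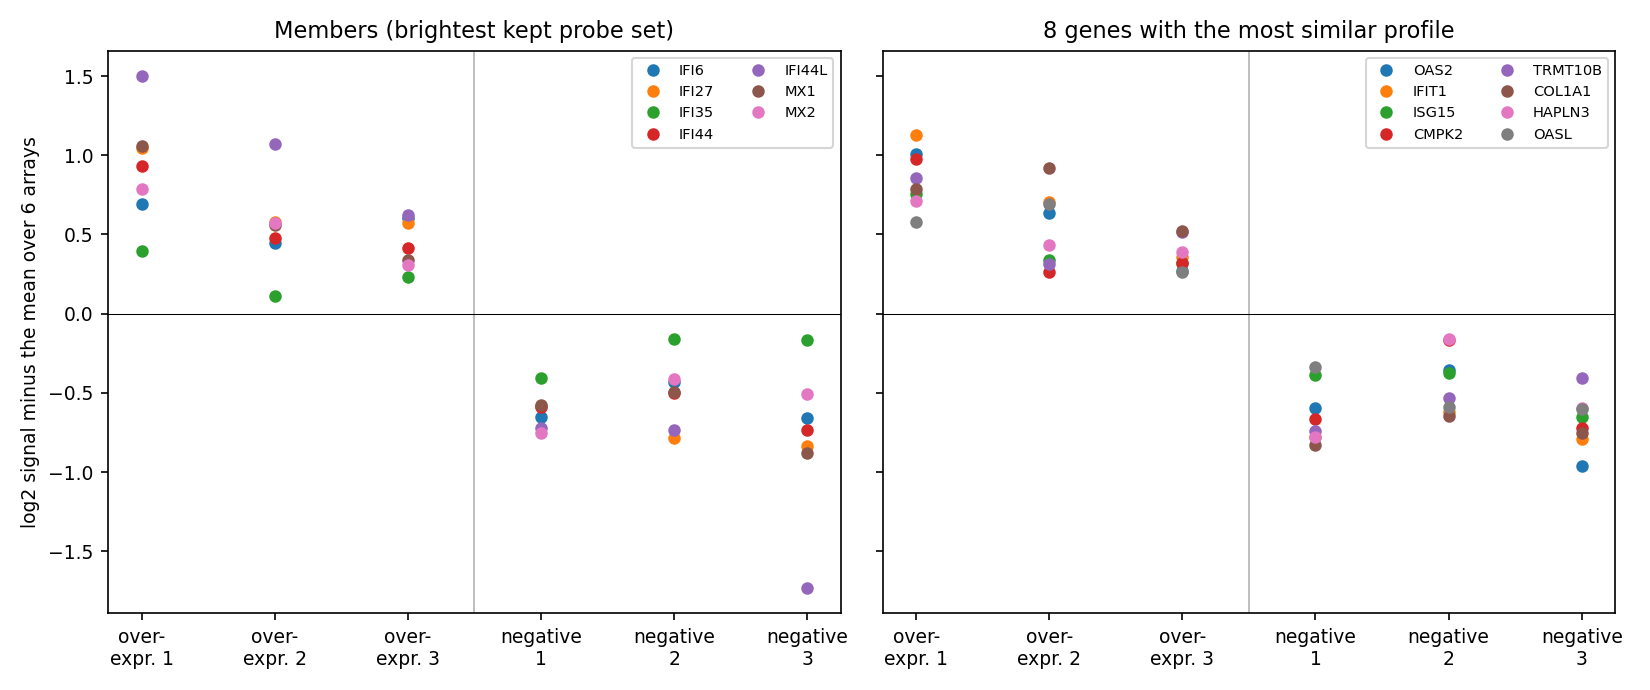
Log2 signal minus its mean over the 6 arrays, for the brightest kept probe set of 7 interferon effector genes (left) and of the 8 other genes with the most similar profile (right), with overexpression replicates 1 to 3 left of the line and negative replicates 1 to 3 right of it. IFI44L is widest and IFI35 narrowest, and overexpression replicate 1 is the highest array for each of the 7.

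The wider set of interferon-induced genes was examined next. Of 57 tested from a list of 64, 19 rose, none fell and 38 did not pass, against 1.89% of all genes rising and 1.95% falling. Differences were above 0 for 56 of the 57, and for 41 the overexpression arrays were above the negative arrays, against 13.4% of all genes. The median difference was 0.35, against 0.0085 over all genes tested and 1.21 for the 7 effector genes. The list holds genes that earlier work on these arrays had already shown to be higher, so it is no independent support. IFIT1 rose by 1.46 (SE 0.16, adjusted p = 0.00230 in limma), at 2845, 2129 and 1673 against 759.5, 847 and 754. OAS2 rose by 1.27 (adjusted p = 0.0163), OAS1 by 1.02 (adjusted p = 0.00608), HELZ2, a helicase coactivator, by 1.16 (adjusted p = 0.0360) and CMPK2 by 1.04 (adjusted p = 0.0343). The other HELZ2 probe sets differed by 0.76 and 0.17. Sensors and enzymes of the same list differed in size. EIF2AK2, the kinase PKR, was at a difference of 0.09 and ADAR, the RNA-editing enzyme, at 0.14, and neither passed. RIGI (0.44), IFIH1 (0.35) and DDX60 (0.56) did not pass either, although their overexpression arrays lay above the negative arrays. OASL (1.02, adjusted p = 0.0143) and OAS3 (0.66, adjusted p = 0.0332) passed. The count of 19 fell to 4, 4 and 15 without overexpression replicate 1, 2 or 3, and to 6, 12 and 18 without negative replicate 1, 2 or 3. It was 9 with the actin ratio as a covariate and 4 without the variance trend. IFIT1 passed in 17 of 17 alternatives and OAS1 in 16 of 17, while HELZ2, CMPK2 and OAS2 passed in 6, 7 and 11 of 16. The actin covariate moved OAS2 to 0.48 (adjusted p = 0.387) and CMPK2 to 0.40 (adjusted p = 0.549). The genes of the list on the array that were too dim to test were USP18, DHX58, RTP4 and TMEM140. USP18 gave 63.1, 35.5 and 68.2 against 78.3, 44.6 and 39.4, and DHX58 gave 33.7, 22.2 and 43.4 against 6.19, 13.0 and 26.5, with overlap in both. RTP4 gave 5.87, 29.9 and 17.9 against 2.11, 4.08 and 5.64. TMEM140 gave 125, 58.8 and 65.2 against 53.4, 43.3 and 21.4. For these 2 the groups were apart, but the negative means of all 4 lay below the array median, so no fold is given.

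Signals of interferon genes themselves were dim. The 8 ligand genes on the array (IFNA1, IFNA2, IFNB1, IFNG, IFNE, IFNK, IFNL1 and IFNL2) were below the filter, with no signal above 70.5 on any array. IFNB1 gave 2.75, 7.06 and 6.58 against 1.68, 2.37 and 5.02, and IFNL1, a type III interferon, gave 51.9, 52.5 and 56.5 against 15.9, 9.21 and 44.6, without overlap but below every array median. Of 21 receptor and signalling genes tested, 2 rose, 1 fell and 18 did not pass, against 1.89% of all genes rising and 1.95% falling. Their median difference was 0.07, against 0.0085 over all genes tested. IRF9, the DNA-binding subunit of the type I interferon response complex and also in the list above, gave 1151, 974 and 821 against 586, 648 and 528 and rose by 0.73 (SE 0.13, limma adjusted p = 0.0202). TYK2, a kinase of the interferon receptors, gave 1007, 947 and 967 against 511, 635 and 660.0 and rose by 0.70 (SE 0.11, adjusted p = 0.0117). IRF2, which competes with activating IRFs at their sites, gave 481, 449 and 431 against 592, 622 and 697 and fell by 0.49 (SE 0.11, adjusted p = 0.0383). IFNAR1 and IFNAR2, the type I receptor chains, differed by 0.07 and -0.19 and did not pass (adjusted p = 0.781 and 0.232). No gene of this list was called without overexpression replicate 1, and none without replicate 2, while TYK2 alone was called without negative replicate 1. IRF9 had an adjusted p of 0.404 with the actin ratio as a covariate, at a difference of 0.30, and IRF2 one of 0.306, at -0.39. With each array centred on its median 2 genes of the list were called higher and 4 lower, with IFNAR2 among the lower ones.

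Genes biased to interferon-gamma did not pass. Of 11 tested from a list of 21, limma called none, against 3.84% of all genes tested. That is too few genes to tell a count of none from this share. An unadjusted p under 0.05 in limma was found for 1. The median difference of the 11 was 0.13, against 0.0085 over all genes tested. For none of the 11 were all overexpression arrays above the negative arrays, against 1597 of 11895 genes tested (13.4%). For none were they all below, against 1637 of 11895. The smallest p values were those of WARS1, a tryptophanyl-tRNA synthetase, at 0.27 (SE 0.10, unadjusted p = 0.0219, adjusted p = 0.161), and GBP2, a guanylate-binding protein, at 0.79 (SE 0.42, adjusted p = 0.309). GBP2 was at 1.21 without overexpression replicate 1, 0.42 without overexpression replicate 2 and 1.87 under the actin covariate, and passed in none of these. WARS1 was called without negative replicate 3 (0.39, adjusted p = 0.0220) and under the actin covariate (0.61, adjusted p = 0.0242). Its other kept probe set (200628_s_at) differed by 0.42 and had an adjusted p of 0.0262 among probe sets, so the 2 probe sets of WARS1 disagree on the call. The chemokines CXCL10 and CXCL11 were too dim to test.

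**Figure D4:**
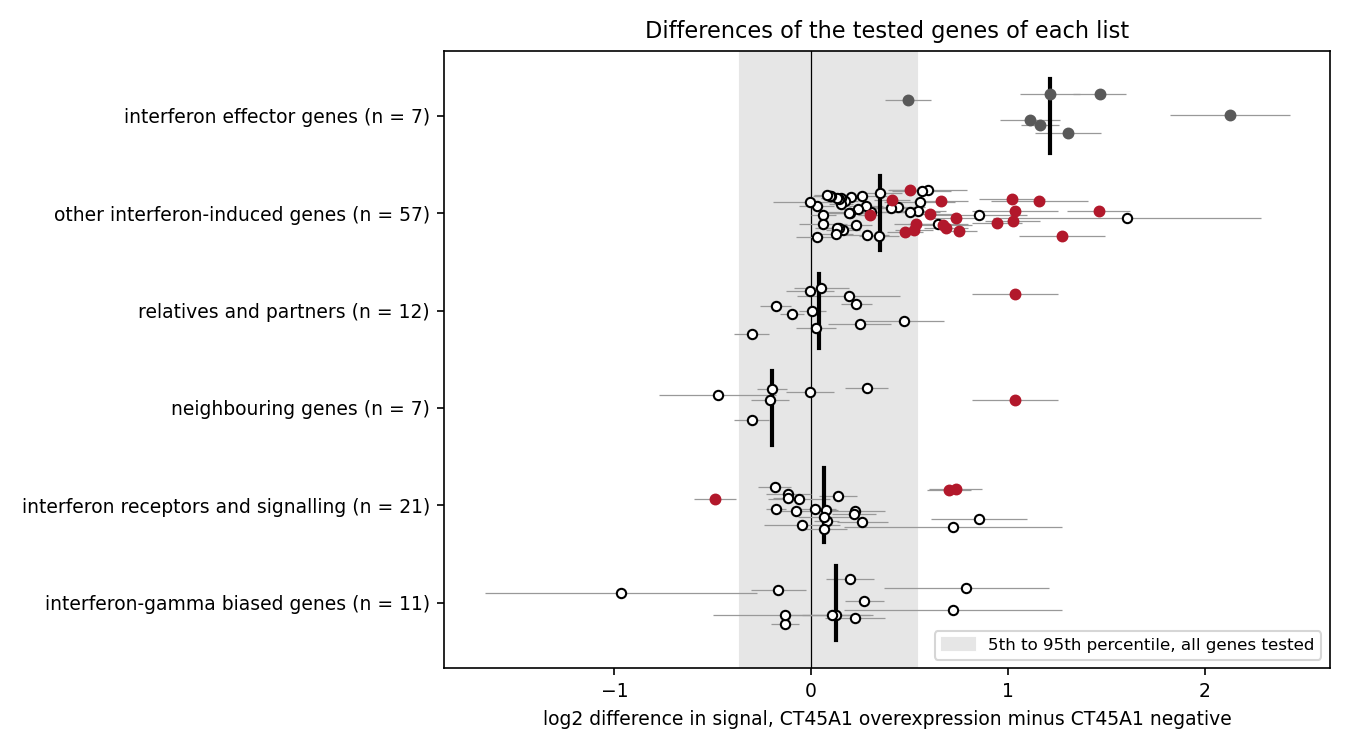
Log2 difference in signal, overexpression minus negative, of each tested gene (points, with SE bars; vertical positions within a row are arbitrary) in 6 lists, with the list median as a black bar and the 5th to 95th percentile of all 11895 genes as a grey band. Dark grey points are the 7 effector genes, drawn without their calls, and in the other rows red points had an adjusted p under 0.05 and open points did not. The effector genes have a median of 1.21 and the other interferon-induced genes one of 0.35.

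Genes next to the effectors were examined for differences shared by position. The nearest protein-coding genes outside the set numbered 16, of which 15 were on the array and 7 could be tested. Of the 7 only CMPK2, beside RSAD2, rose (by 1.04), where 1.89% of all genes did, and it is itself interferon-induced. The others did not pass, at 0.28 for MVB12A beside BST2, -0.0047 for IFI27L1 and -0.30 for IFI27L2 beside IFI27, -0.20 for RPL27 and -0.21 for VAT1 beside IFI35, and -0.48 for FAM76A beside IFI6. With array medians centred, IFI27L2 (-0.45, adjusted p = 0.0138), RPL27 (-0.35, adjusted p = 0.0136) and VAT1 (-0.35, adjusted p = 0.0368) were called lower. RPL27 was at -0.11 without overexpression replicate 3. Other shifts over 1.5 times came from the actin covariate (RPL27 -0.41, IFI27L2 -0.19, VAT1 -0.018, FAM76A -1.04 and MVB12A 0.43), quantile normalization (RPL27 -0.063), centring (MVB12A 0.14) and averaging of probe sets (FAM76A -0.27), and none of these passed. Neither FAM3B nor TMPRSS2, which flank the MX genes, was bright enough to test, nor were PTGFR and ADGRL4, which flank IFI44L and IFI44, FGR beside IFI6, RNF144A beside RSAD2, and SLC13A5 and FBXO39 beside XAF1. CCDC194, beside BST2, had no probe set of its own. The count of 1 became 0 without overexpression replicate 1, 2 or 3 and without negative replicate 1 or 3. Among 12 tested relatives and partners of the effectors CMPK2 was again the 1 gene that passed, against 3.84% of all genes tested. None was called there without overexpression replicate 1, 2 or 3 or negative replicate 1, and without negative replicate 3 the 1 call was NR4A1 in place of CMPK2. XIAP, the partner of XAF1, differed by 0.02 (SE 0.10, adjusted p = 0.921), and the dynamin DNM1L by -0.10 (adjusted p = 0.372).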

How the data were processed

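RNA of 3 CT45A1 overexpression and 3 CT45A1 negative samples was hybridised to Affymetrix Human Genome U133 Plus arrays. The deposited values are linear MAS5 intensity signals per probe set, made with affy and MAS5 per the submitters' processing notes (no version is given in the sources used). Each array's trimmed mean signal was 500.06 to 500.07, so the arrays had been scaled to one level. The number of arrays limits the precision.

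Signals were taken to log2 without an offset and compared with limma 3.58.1 in R 4.3.3 (lmFit, then eBayes with a variance trend, Benjamini-Hochberg adjustment, threshold 0.05) over 27618 probe sets, or over 11895 genes read by their brightest kept probe set. Gene lists were tested by gene. Tables and figures were made with Python 3.11.15, pandas 2.3.3 and matplotlib 3.10.9, and the fit was tested on simulated data. Of 54613 probe sets, 41091 had 1 gene in GEO's platform annotation, 1801 several and 11721 none, and those with several or none were not named, apart from the CT45 check.

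The effector genes and the gene lists were chosen with earlier results of these data known. From each list up to 5 genes past the threshold in each direction were named by size of difference, or the 2 with the smallest p where none passed, with the 8 genes of most similar profile and every neighbouring gene. NMI, EIF2AK2, ADAR, USP18, XIAP, DNM1L, IFNAR1, IFNAR2, CXCL10, CXCL11, CDH5, PTPRC and the interferon genes were named after their values were seen. So were RIGI, IFIH1, DDX60, OAS3, DHX58, RTP4 and TMEM140. Alternatives changed the normalization, filter, offset, variance model, probe set choice, replicate block, actin covariate and arrays used. Protein sequences of the effectors were not used here.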

Additional observations from a re-analysis of the deposited data

How the results depend on the processing

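Over all probe sets the count of 892 (522 higher, 370 lower) became 2975 (387 higher, 2588 lower) with each array centred on its median, 486 without the filter, 4 without the variance trend and 446 with _x_at and _s_at probe sets left out. It was 156 to 1152 when 1 array was left out. The effector count of 6 became 0 without the variance trend and 2 with the actin covariate, and was 6 to 6 with 1 array left out. The interferon-induced count of 19 became 4 without the variance trend and 9 with the actin covariate, and was 4 to 18 with 1 array left out. The signalling count of 3 became 6 after centring (2 higher, 4 lower) and 0 without the variance trend, and was 0 to 2 with 1 array left out, while the "no filter" and actin settings gave 2. The interferon-gamma count of 0 became 1 after centring (GBP3, lower), with the actin covariate and when probe sets of a gene were averaged, and was 0 to 1 with 1 array left out. The counts of 1 for relatives and for neighbouring genes became 0 under quantile normalization, without the filter, with the filter at the 75th percentile, without the variance trend and with the actin covariate. After centring they became 3 (1 higher, 2 lower) and 4 (1 higher, 3 lower), and with 1 array left out both were 0 to 1. IFI27L1, near no difference, ranged from -0.046 to 0.053 with 1 array left out, and turned to 0.021 without overexpression replicate 1, 0.011 without overexpression replicate 3 and 0.053 without negative replicate 2. The differences of the 8 effector probe sets kept their sign under every alternative run. The cause of these changes was not tested.

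With the replicate number as a block the counts were 1189 probe sets, 6 effector probe sets and 23 interferon-induced genes, with the other lists unchanged at 3, 0, 1 and 1. Same-numbered arrays had correlations of -0.013, 0.0038 and 0.15 between their deviations from the group means. The last of these, for replicate 3, was the highest of all pairs of an overexpression and a negative array. Whether same-numbered arrays were handled together cannot be told from these values or from the labels. Overexpression replicate 1 correlated best with negative replicate 2.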
